A study of Drosophila melanogaster with 2 samples.

Results

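The Hippo pathway core genes hpo, sav, wts, mats, yki, ex, Mer, kibra, sd and Diap1 were examined for binding of abrupt (ab), a DNA-binding protein of Drosophila melanogaster with a BTB domain and zinc fingers. The 10 genes were chosen by name, with earlier results of these data known, from 13945 protein-coding genes on 6 chromosome arms. Comparisons with all genes are therefore descriptions. Each gene was given a territory of its gene body plus 1000 bp on either side. ChIP-seq was done on whole embryos of a transgenic strain, ab-GFP, in which ab carries eGFP at its C-terminus, and chromatin was precipitated through the tag. All material was of this genotype: embryos of both sexes were pooled, were 0 to 24 hours old and gave 2 biological replicates of a single group. Cell types and stages are therefore mixed in every value, binding is that of the tagged protein, and no second condition was compared. Regions were listed on the dm6 genome build for each replicate (30000 in each), for the pooled reads (21376) and as a reproducible list (1664). Each region has a summit and a signal, the authors' own score, on a scale that the sources used here do not state; read depth is unknown. The replicate lists were made separately, so their signals are given side by side, with ranks in their own list.

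The Hippo pathway limits tissue growth. Kibra, Expanded and Merlin act at the apical cell cortex to switch on the kinase Hippo, which with its scaffold Salvador phosphorylates the kinase Warts and its cofactor Mats. Warts phosphorylates the coactivator Yorkie and keeps it out of the nucleus; without this, Yorkie joins the DNA-binding protein Scalloped and turns on genes for growth and survival. Diap1, an inhibitor of caspases, is a classic target, and ex and kibra are targets too, in a negative feedback loop.

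A reproducible peak lay in the territory of 7 of the 10 core genes, against 13.2% of all protein-coding genes. The 7 genes were kibra, ex and Mer upstream, the kinases hpo and wts, the coactivator yki and the target Diap1. The scaffold sav, the cofactor mats and the DNA-binding partner sd had none. Long territories collect more peaks: taking for each of the 10 genes the share with a peak among genes of its decile of territory length, these shares add up to 2.02 genes. There were 9 peaks in all, 3 at kibra and 1 at each of the others. Their signals ran from 56.9 to 106.5, with a median of 70.9, and 4 of the 9 were above the median of the whole reproducible list, 75.1. The highest signal of that list was 1007, so the core genes had peaks of ordinary height. The strongest peak per gene had a median of 79.9 over the 7 genes and 79.6 over all genes with a peak.

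**Figure D1:**
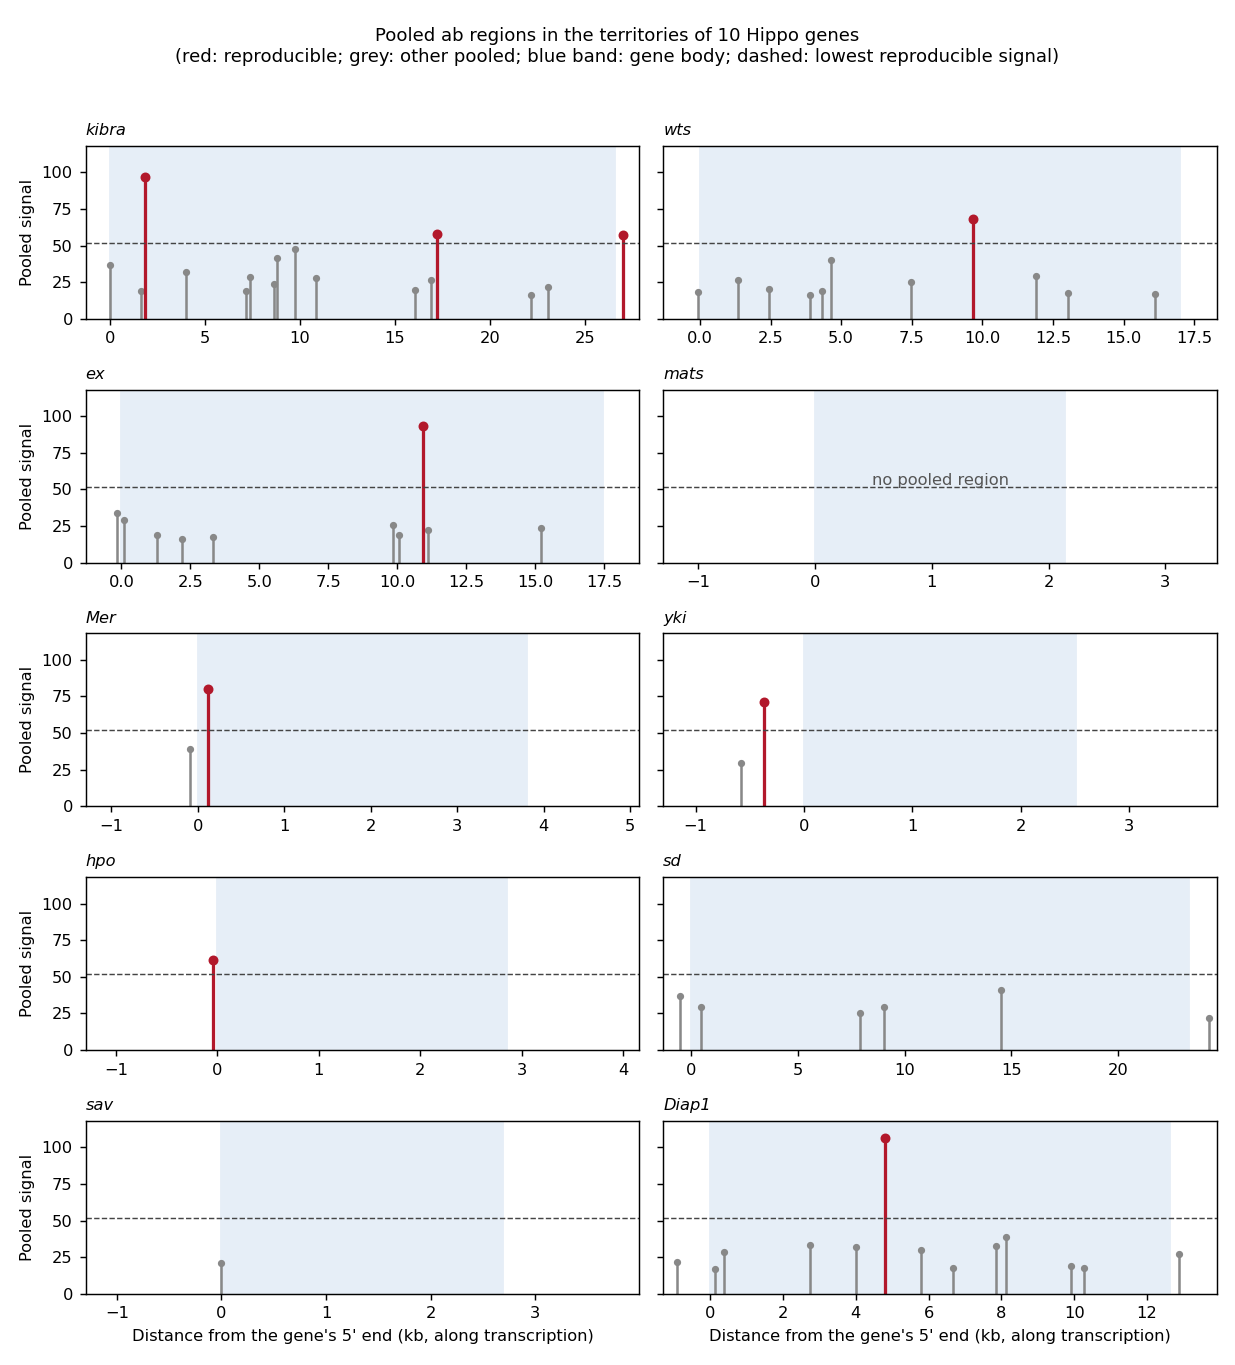
Pooled regions in the territories of the 10 core genes, by distance from the 5′ end of the gene in kb and by pooled signal. Reproducible peaks stand out from many weaker regions at Diap1, wts and ex, as does the strongest peak at kibra. The weaker reproducible peaks of kibra, at 58.0 and 56.9, are closer to its next pooled region, at 47.6. The gene mats has no pooled region.

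The upstream gene kibra, which encodes a WW-domain protein, had 3 reproducible peaks, a number reached by 86 protein-coding genes (0.617%). That share is not matched on length. The kibra territory is in the longest decile, where 30.7% of genes had a peak, against 13.2% of all. The strongest kibra peak lay in an intron, chr3R:14722171-14722680, with its summit at 14722426. The summit was 1835 bp downstream of the kibra transcription start site (TSS), which was the nearest TSS. Its pooled signal was 97.1 (rank 478). Replicate 2 gave 75.6 there (rank 184), and replicate 1 gave 6.42 (rank 29177 of 30000). The peak was thus strong in replicate 2 and near the bottom of the list in replicate 1. The ratio of replicate 2 to replicate 1, 11.8, was not exceeded at any of the 1590 reproducible peaks matched in both replicates. The second peak, chr3R:14706801-14707310, also lay in an intron, 17205 bp from the kibra TSS and 9764 bp from that of Meltrin, which encodes a metalloprotease. Its signal was 58.0 in the pool, 22.0 in replicate 1 and 34.0 in replicate 2, so it was listed in both. The weakest of the 3, chr3R:14697012-14697521, lay outside the kibra gene body, in the 5′ UTR of Meltrin and 25 bp downstream of its TSS. It had 56.9 in the pool and 54.6 in replicate 2 (rank 442), and no summit of replicate 1 lay within 200 bp. The strongest region of replicate 1 at kibra was elsewhere in the gene, with a summit at 14715349 and a signal of 32.1. The pooled list had 41.4 near it, at 14715453, below the reproducible list.

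At ex, which encodes a FERM-domain protein, the single reproducible peak was intronic (chr2L:441889-442398, summit 442144), 10917 bp downstream of the ex TSS. The nearest TSS was that of a nested long noncoding RNA, lncRNA:CR43717, at 2605 bp, and the nearest protein-coding one that of crq, a scavenger receptor gene, at 9158 bp. The signal was 93.4 in the pool (rank 513), 40.9 in replicate 1 (rank 704) and 49.2 in replicate 2 (rank 571). These replicates placed the ex peak at like ranks. Mer encodes another FERM-domain protein, the relative of the human tumour suppressor NF2. Its peak (chrX:19693126-19693635, summit 19693381) lay 119 bp downstream of the Mer TSS, within an intron, and 1677 bp from the TSS of CG14229, whose territory it shares. The Mer signal was 79.9 in the pool (rank 725), 26.4 in replicate 1 (rank 1498) and 54.7 in replicate 2 (rank 437). Both replicates held it among their 1664 strongest regions, with replicate 2 higher.

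The sequences around the strongest peaks of these 3 genes are shown because these peaks were the highest among the upstream genes. Each runs 5′ to 3′ on the plus strand of the RefSeq Release 6 genome (dm6 coordinates), 299 bases centred on the summit. Capitals mark words found by a search on both strands, so that GAGAG on the minus strand reads CTCTC here. The kibra sequence (chr3R:14722277-14722575) has 7 overlapping or separate matches to GAGAG, a word of GAGA factor, all on the minus strand. The ex sequence (chr2L:441995-442293) has 1 GAGAG and 1 CATTCC, the core word bound by Scalloped, which starts 99 bp from the summit. The Mer sequence (chrX:19693232-19693530) has CGATA and, as GTGTGACC, a minus-strand match to GGTCACAC, part of core promoter Motif 1.
kibra: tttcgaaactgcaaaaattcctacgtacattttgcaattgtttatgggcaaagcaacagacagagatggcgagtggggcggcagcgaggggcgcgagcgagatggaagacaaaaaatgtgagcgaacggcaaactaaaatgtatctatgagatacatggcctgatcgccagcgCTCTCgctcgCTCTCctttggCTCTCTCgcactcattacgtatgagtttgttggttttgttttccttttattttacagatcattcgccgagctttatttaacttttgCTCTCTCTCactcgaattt
ex: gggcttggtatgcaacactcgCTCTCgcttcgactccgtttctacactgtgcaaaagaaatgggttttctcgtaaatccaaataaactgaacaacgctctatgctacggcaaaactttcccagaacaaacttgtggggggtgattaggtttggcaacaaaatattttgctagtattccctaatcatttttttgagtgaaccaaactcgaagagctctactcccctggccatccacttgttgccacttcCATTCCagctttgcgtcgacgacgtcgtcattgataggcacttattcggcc
Mer: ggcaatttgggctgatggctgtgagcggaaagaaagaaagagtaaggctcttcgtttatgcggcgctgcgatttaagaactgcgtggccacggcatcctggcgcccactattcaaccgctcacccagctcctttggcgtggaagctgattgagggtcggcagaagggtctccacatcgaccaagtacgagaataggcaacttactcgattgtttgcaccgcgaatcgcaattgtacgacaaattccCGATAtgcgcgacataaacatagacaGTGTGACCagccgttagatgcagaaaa

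The second kibra peak was next to a transposable element. Its summit at 14707056 was 6 bp from an annotated INE-1 element of 69 bp, an old DNA-transposon relic, at chr3R:14706982-14707050. Over the whole reproducible list, 7 of 1664 summits (0.421%) were within 100 bp of an annotated element, counting 3 that lay inside one. For 5 of the 7 the element was INE-1. In the 161 bases of chr3R:14706976-14707136 (plus strand, RefSeq Release 6) the capitals are the bases of the element.
kibra, second peak: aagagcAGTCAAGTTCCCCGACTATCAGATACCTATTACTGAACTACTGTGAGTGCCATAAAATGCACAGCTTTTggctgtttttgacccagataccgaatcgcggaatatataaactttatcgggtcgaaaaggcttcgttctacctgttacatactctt

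Among the kinase-level genes, hpo and wts had peaks. At hpo, which encodes the Ste20-like kinase, the summit (2R, 19496896) was 40 bp upstream of the hpo TSS and 856 bp from the TSS of CG15120. The signal was 61.5 in the pool (rank 1205), 35.9 in replicate 1 (rank 897) and 25.5 in replicate 2 (rank 2695). The hpo peak was thus among the 1664 strongest regions of replicate 1, but not of replicate 2, which start at 31.5. The window at hpo held TATCGATA, the DRE word, which also contains CGATA on both strands. At wts, which encodes the kinase that inactivates Yorkie, the peak was intronic (3R, 30796683 to 30797192). Its summit was 9681 bp from the wts TSS, still the nearest TSS counted, and 5242 bp from the start of the mir-1013 hairpin inside wts. The signal at wts was 67.9 in the pool (rank 1007), 24.0 in replicate 1 (rank 1748) and 44.0 in replicate 2 (rank 772). Here replicate 2 was the higher, and replicate 1 fell just short of its strongest 1664, which start at 24.7. The wts promoter itself had a weaker pooled region of 18.3, at 60 bp from the TSS.

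The scaffold sav had a single pooled region, 5 bp upstream of its TSS (3R, 23061309). Its signal was 20.8 in the pool (rank 10229), 10.7 in replicate 1 and 12.9 in replicate 2, close to the median of each list, 20.4, 8.68 and 11.5. The sav promoter was thus listed in both replicates at an ordinary level for weak regions. At mats, which encodes the Mob-family cofactor of Warts, no region was listed in the pool or in replicate 2. Replicate 1 had 3 regions in the mats territory with signals of 10.1, 9.80 and 7.14, and the second of these lay nearest to the TSS of pinta.

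The effector yki had a promoter peak shared with its neighbour. The summit (2R, 24068854) fell in the 5′ UTR of Gpat4, a gene of glycerolipid synthesis that runs the other way, 97 bp downstream of the Gpat4 TSS and 369 bp upstream of the yki TSS. The signal was 70.9 in the pool (rank 930), 32.0 in replicate 1 (rank 1093) and 24.6 in replicate 2 (rank 2928). Like hpo, yki was thus ranked higher in replicate 1. Which of the 2 genes the site serves was not tested. None of the 6 words searched was in the yki window.

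The gene sd encodes the TEAD-family protein that brings Yorkie to DNA. It had 6 pooled regions and no reproducible peak. The strongest, 717 bp downstream of 1 of its 7 TSSs (X, 15818868), had a pooled signal of 41.1 (rank 2556), below the 51.8 at which the reproducible list ends. Replicate 1 also had its strongest region at sd there, with 19.8. Replicate 2 had its strongest, 26.8, at another place (15804906), and 17.9 at the first. Of the 7 sd TSSs, 4 had a pooled summit within 500 bp.

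The target Diap1, the caspase inhibitor, had the highest pooled signal of the 10 genes; the highest in replicate 1 was at ex and in replicate 2 at kibra. The Diap1 peak lay in an intron (chr3L:16045983-16046492, summit 16046238), 608 bp downstream of an internal Diap1 TSS. Its signal was 106.5 in the pool (rank 382), 39.3 in replicate 1 (rank 767) and 74.1 in replicate 2 (rank 191). Both replicates held the Diap1 peak among their strongest 1664 regions. All 5 Diap1 TSSs had a weaker pooled summit within 500 bp, with signals of 17.3 to 38.9; replicate 2 listed a summit at all 5 and replicate 1 at none. The Diap1 sequence (chr3L:16046089-16046387, plus strand, RefSeq Release 6) is shown because this was the highest pooled signal of the group and the window held none of the 6 words, so nothing is in capitals.
Diap1: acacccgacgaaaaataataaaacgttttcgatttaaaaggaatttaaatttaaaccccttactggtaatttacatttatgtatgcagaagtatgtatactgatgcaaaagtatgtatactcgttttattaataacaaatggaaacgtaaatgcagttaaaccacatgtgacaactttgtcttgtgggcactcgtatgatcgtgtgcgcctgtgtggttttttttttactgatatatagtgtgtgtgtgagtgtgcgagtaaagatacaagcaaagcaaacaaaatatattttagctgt

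The base composition and the words were set beside those of all 1664 reproducible peaks, in windows of 150 bp on either side of the summit. The GC content of the 9 core-gene windows had a median of 43.9% (32.9% at Diap1 to 51.2% at Mer), against 38.5% for all peaks (interquartile range 35.5 to 42.5%). CGATA was in 5 of the 9 windows, at hpo, wts, Mer and the 2 weaker kibra peaks, and in 37.6% of all. GGTCACAC was in 2, at Mer and the kibra peak in Meltrin, and in 3.19% of all. GAGAG was in 2, at ex and kibra, and in 38.6% of all. TATCGATA was in 1 (4.51% of all) and CATTCC, the Scalloped word, in 1 (9.86% of all). CACGTG, the E-box, was in none of the 9 and in 4.21% of all. No word was shared by most of the sites except CGATA, the shortest with GAGAG; with 9 windows these counts are a description of letters, not of bound factors.

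By position, 4 of the 9 peaks were within 500 bp of a TSS (44.4%), against 56.1% of all reproducible peaks, and the other 5 (55.6%) were intronic, against 30.9%. The TSS nearest to the summit was the member's own for hpo, wts, Mer, the strongest kibra peak and Diap1. For ex it was that of lncRNA:CR43717, for yki that of Gpat4, and for the 2 weaker kibra peaks that of Meltrin. Of the 21 core-gene TSSs, 16 (76.2%) had a pooled summit within 500 bp, against 38.2% of the 19607 TSSs of all protein-coding genes. They lay in 9 of the 10 genes, against 40.4% of all protein-coding genes, and some neighbouring TSSs of sd and Diap1 shared a summit. Replicate 1 had a summit at 9 of the 21 (42.9%, against 37.9% of all) and replicate 2 at 15 (71.4%, against 44.8%). Counted by TSS, the core genes were thus near the background in replicate 1 and above it in replicate 2. However, 12 of the 21 belong to sd and Diap1, so they are not independent. Counted by gene, 7 of the 10 had a TSS with a summit in replicate 1, against 41.6% of all protein-coding genes. In replicate 2 it was 9 of the 10, against 45.8%, so by gene both shares were above those of all genes. A gene with more TSSs has more ways to be counted, however. The 10 core genes have 21 TSSs and all 13945 protein-coding genes have 19607. The shares by gene, in the pool and in each replicate, are not matched on this. Besides those given above, the kibra TSS had a pooled summit at 1 bp with a signal of 36.6, and the ex TSS one at 173 bp with 33.6.

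The replicates differed in what they placed at the core genes. Among the 1664 strongest regions of replicate 1, 7 lay in the territories of 6 of the 10 genes, against 14.2% of all protein-coding genes. Among those of replicate 2, 8 lay in the territories of 5 of the 10, against 11.8%. The genes in both were ex, Mer, kibra and Diap1, 4 of the 10, against 8.06% of all protein-coding genes. The shares of all genes given here are not matched on length, and ex, kibra and Diap1 have long territories. Of the others, hpo and yki were in the first alone and wts in the second alone. For kibra the 2 strong regions of replicate 1 were not at its reproducible peaks: they had 32.1 at 14715349 and 28.0 at 14724428, the latter 167 bp upstream of the kibra TSS. At the peaks themselves, 8 of 9 were matched by a summit within 200 bp in both replicates (88.9%), against 1590 of 1664 (95.6%). By the listed signals, which have no stated common scale, replicate 2 was higher at 6 of these 8, against 52.3% of all matched peaks. The log2 ratio of replicate 2 to replicate 1 had a median of 0.75 at the 8 and of 0.05 at all, where its SD was 0.88. Of the 8, 6 were within 1 SD of the median of all, as were 73.6% of all matched peaks, and Mer, at 1.05, and kibra, at 3.56, were not. All 5 intronic peaks, 2 of them at kibra, were higher in replicate 2, as were 61.2% of the 485 intronic peaks matched in the whole list. Of the 3 matched promoter peaks only Mer was, as were 46.3% of the 902 in the whole list. The Mer summit also lay in an intron but was classed by its distance to the TSS. In the whole list the median log2 ratio was 0.19 at intronic peaks (SD 0.80) and -0.10 at promoter peaks (SD 0.91), so the classes overlapped widely. With 8 core-gene peaks, no link with position can be drawn. What set the replicates apart was not tested.

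**Figure D2:**
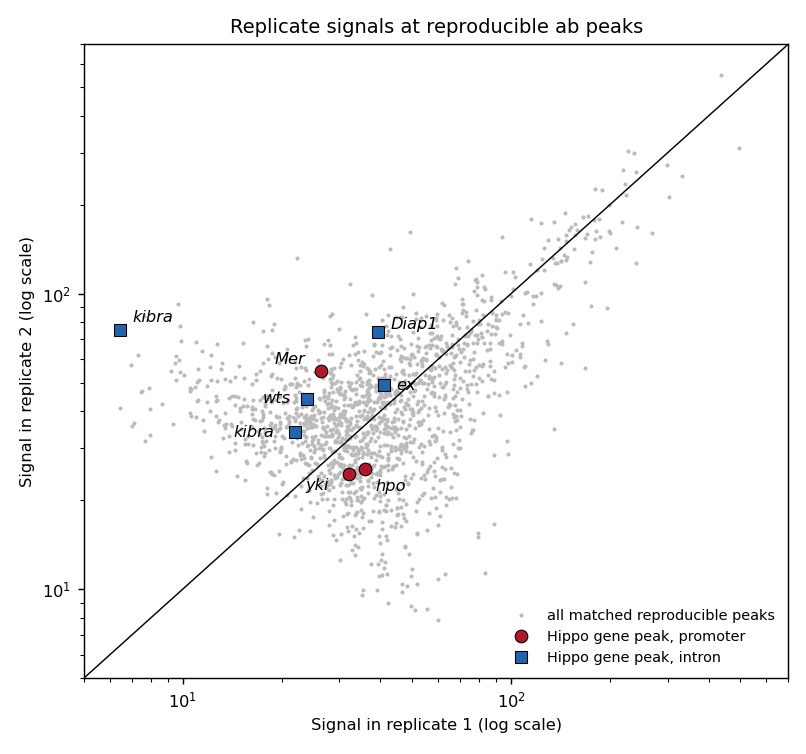
Signal in replicate 1 against replicate 2 at the reproducible peaks matched in both, on log axes, with the 8 matched core-gene peaks named. The strongest kibra peak sits far from the others, at 6.42 in replicate 1 and 75.6 in replicate 2.

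Weaker regions were frequent in the longer core genes. A pooled region lay in the territory of 9 of the 10 genes, against 63.4% of all protein-coding genes, a region of replicate 1 in all 10 (73.1% of all) and one of replicate 2 in 9 (69.8% of all). The pooled list had 62 regions in these territories, 42 of them nearest to a TSS of the member, with signals from 16.0 to 106.5. The share nearest to their own gene was not counted over all genes, so the 42 have no background. Diap1 held 13 pooled regions, or 0.889 per kb, against a median of 0.218 for the genes in its decile of territory length, and 0.287% of those genes had as many per kb or more. For wts (11 regions, 0.579 per kb), kibra (16 regions, 0.560 per kb) and ex (10 regions, 0.513 per kb) the median of their decile was 0.160, and 1.36%, 1.58% and 2.87% of the genes there were as dense or denser. The long gene sd, with 0.237 per kb, was not apart (31.3%). Replicate 2 gave like values, from 0.143% at Diap1 to 5.16% at ex, and 21.4% at sd. In replicate 1 the densities were less unusual, with 19.1% of genes as dense or denser for Diap1, 22.2% for wts, 13.98% for kibra and 63.9% for ex. Counting overlapping pooled regions as 1 left 9 at Diap1 (0.502%), 9 at wts (1.00%), 12 at kibra (2.08%) and 7 at ex (4.80%). As listed, the densities in these 4 genes were thus more unusual in replicate 2 than in replicate 1, and the cause was not tested. Regions had a median width of 384 bp in replicate 1 and 600 bp in replicate 2. Overlaps within a replicate list were not joined.

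**Figure D3:**
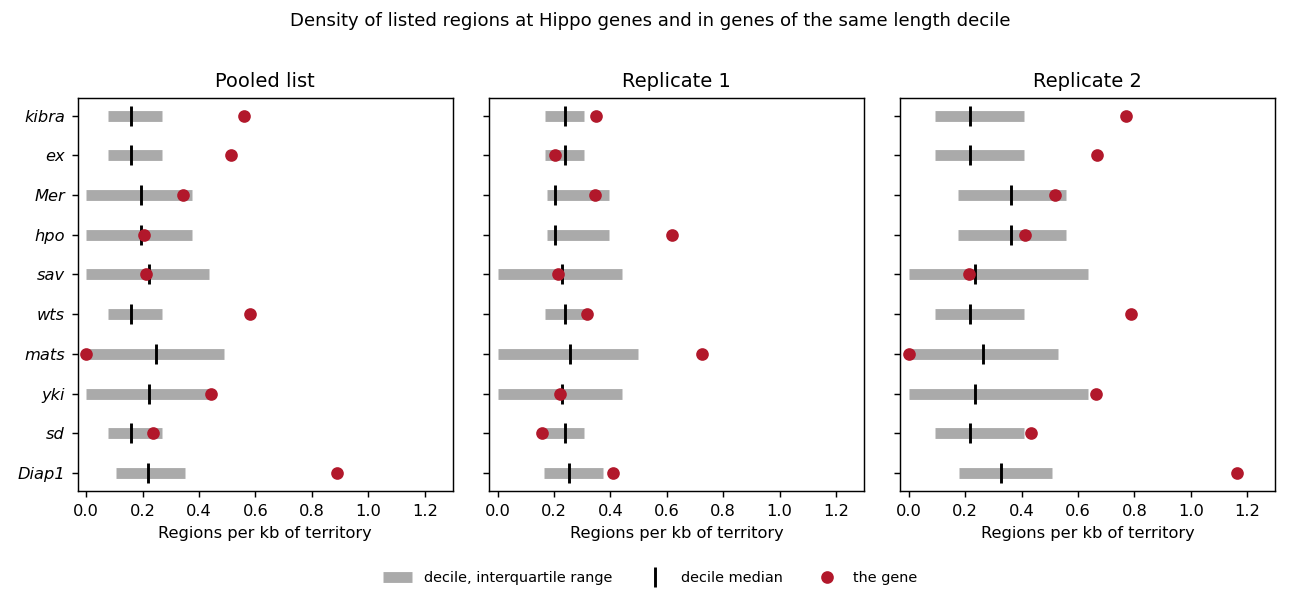
Listed regions per kb of territory for the 10 core genes, in the pooled list and in each replicate, with the median and quartiles of genes in the same decile of territory length. Diap1, wts, kibra and ex lie far above the quartiles in the pool and in replicate 2, while in replicate 1 hpo and mats, with 3 regions each, stand out most.

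A wider list of 59 genes that act with the core pathway, also chosen with earlier results known, was set beside it. The 58 of them that code for proteins included all 22 with a reproducible peak (37.9%), against the 13.2% of all protein-coding genes and a mean of 24.2% in their deciles of territory length. Among 20 genes of the membrane and cortex, which feed polarity and adhesion signals into the pathway, 8 had a peak (40.0%, against a mean of 24.96% in their length deciles). The strongest were at dlg1 and scrib, scaffold genes of the basolateral membrane. The dlg1 peak had 118.2 in the pool, 62.4 in replicate 1 and 44.0 in replicate 2, and the scrib peak 93.4, 28.8 and 56.0. The adhesion gene ed (86.5 in the pool, 57.5 in replicate 1, 32.9 in replicate 2) and the atypical cadherin gene ds (84.5, 51.9 and 36.7) had their peaks 727 and 642 bp from their own TSSs. The order of the replicates differed: of these 4, only scrib was higher in replicate 2.

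At the kinase level 5 of 11 genes had a peak (45.5%, against 22.1% in their deciles), but in 3 of them, hppy, Strip and mts, the nearest TSS belonged to another gene. Of the 11, only 1 had a region among the strongest 1664 of replicate 1, 3 had one in replicate 2, and 1 in both. Among 15 partners and regulators of Yorkie and Scalloped, 6 had one (40.0%, against 24.6%). The strongest was at gro, the Groucho corepressor gene, 91 bp from its TSS, with 294.0 in the pool, 129.4 in replicate 1 and 152.2 in replicate 2. The next was at Mad, the Smad of Dpp signalling, in an intron, with 143.4, 84.3 and 64.5. Among 13 target genes 3 had a peak; all 3 are among the 12 protein-coding targets, whose decile shares add up to 2.93 genes, so the targets were at their background. The strongest was at the mitotic cyclin gene CycB, with 303.7 in the pool, 146.7 in replicate 1 and 157.9 in replicate 2, beyond the end of the gene and 3368 bp from its TSS. InR, the insulin receptor gene, had 4 peaks, the strongest with 97.3, 33.9 and 53.2. Among the targets with none were CycE, mir-ban, wg and E2f1. In the strongest 1664 regions of each replicate, 18 of the 59 genes had a region in replicate 1, 19 in replicate 2 and 12 in both, against the 14.2%, 11.8% and 8.06% of all protein-coding genes, which are not matched on length. Besides the kinase level, the counts were 9, 8 and 5 for the 20 membrane and cortex genes. They were 4, 4 and 3 for the 15 partners, and the same for the 13 targets. The peaks at gro and CycB were above that at Diap1 in the pool and in both replicates, and those at Mad and dlg1 in the pool and in replicate 1 alone.

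**Figure D4:**
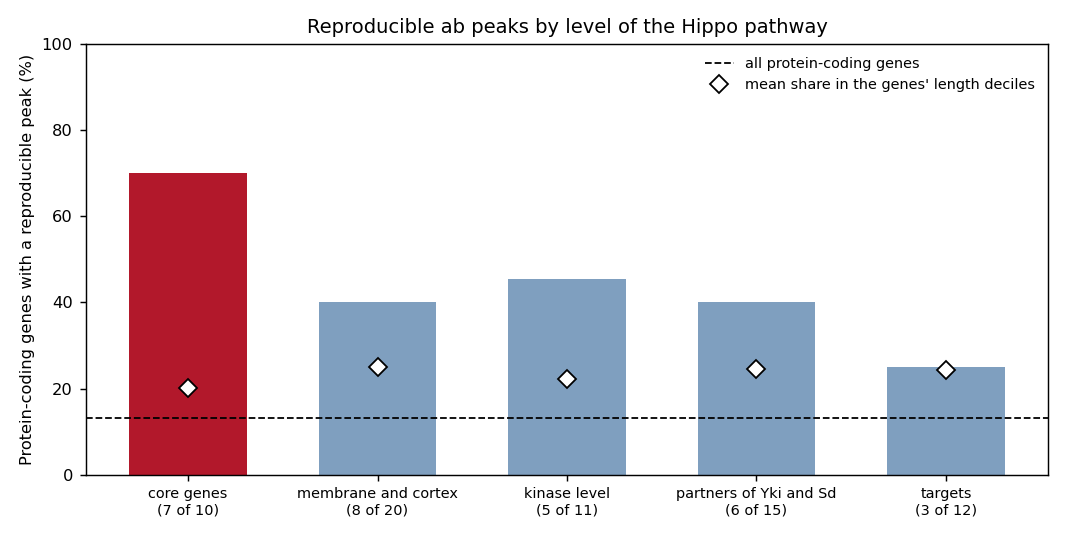
Share of genes with a reproducible peak, in percent, for the 10 core genes and the protein-coding genes in the 4 groups of the wider list (bars), with the share of all protein-coding genes (dashed line) and the mean share in the genes' length deciles (diamonds). The bars stand at 70.0% for the core genes, between 40.0% and 45.5% for 3 of the groups, and, for the targets, at 3 of 12 genes, level with their diamond at 24.4%.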

How the data were processed

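Regions bound by GFP-tagged ab were deposited by the authors as lists with a summit and a signal value per region. The deposited signal is the authors' own score against a control, on a scale not stated. Per the deposited description files, relaxed lists were made for each replicate and for the pool, and IDR (irreproducible discovery rate) analysis of these gave the reproducible list. Aligner, peak caller and thresholds are not given in the sources used here. As deposited, the reproducible list holds the 1664 strongest of the 21376 pooled regions, so a peak can enter it through 1 replicate.

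Summits were placed in territories (gene body plus 1000 bp) with Python 3.11.15, pandas 2.3.3 and numpy 2.4.6. Genes and TSSs of protein-coding genes, long noncoding and antisense RNAs came from Ensembl release 115 (BDGP6.54, dm6 coordinates), and sequence from the RefSeq Release 6 genome. Promoters were within 500 bp of a TSS, replicate summits matched within 200 bp, and motifs were sought within 150 bp. Background counts cover all 13945 protein-coding genes, also in 10 equal classes of territory length. Shares and densities are given without tests or intervals: there is 1 group, no read counts were used, and depth is unknown. The genes, lists and motifs were chosen with earlier results of these data known. Named genes are the 10 core genes, the genes nearest to their peaks, the 8 wider-list genes with the strongest peaks, and a few others chosen after their values were seen. Calculations were tested on simulated data. Regions on the older dm3 build were not used here, and no coordinates were converted.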

Additional observations from a re-analysis of the deposited data

How the results depend on the processing

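Of 35 alternative counts, 30 stayed within 1.5 times the reported one. With peaks above the median signal alone, 4 core genes kept 4 peaks, against 7.45% of all protein-coding genes, and 11 of the wider list had one. Counting a peak only where the member's TSS was nearest left 5 peaks in 5 genes (7.95% of all genes), and so did protein-coding TSSs alone, an alternative chosen after seeing the data. With the strongest regions of 1 replicate, 5 to 6 core genes had 7 to 8 regions, and 18 to 19 genes of the wider list had one. Any listed region gave 10 core genes in replicate 1 (73.1% of all genes) and 9 in replicate 2 (69.8%), against 9 reported for the pool. Pooled regions in gene bodies alone gave 6. The share of all genes for that setting was not counted, so the 6 cannot be set against a background. Gene bodies alone gave 5 core genes and 6 peaks (5.41% of all genes), margins of 2000 and 5000 bp 7 genes and 10 peaks (16.2% and 24.0% of all genes). Promoters of 200 or 1000 bp held 4 and 5 peaks, and every annotated start, chosen after seeing the data, 5. Matching within 100 or 400 bp, or by overlap, left 8 peaks. Joining overlapping pooled regions and the densities per replicate were also chosen after seeing the data. Without read counts, no interval can be put on a signal, and a region missing from a list is not shown to be unbound.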

Other observations

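The 3 summits of the whole reproducible list that fell inside an annotated transposable element included none at a core gene; the kibra peak next to INE-1 was the single core-gene peak of 9 within 100 bp of one. The gene kibra was 1 of the 86 protein-coding genes with 3 or more reproducible peaks, and its 3 were in unlike states. One was listed in both replicates with a ratio within 1 SD of the median of all peaks. Another, 25 bp from the Meltrin TSS and outside the kibra gene body, was matched in replicate 2 alone. The strongest had a signal in replicate 1 that ranked 29177 of 30000. The states of the peaks at the other genes were not compared.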
